A study of Mus musculus with 18 samples.

Results

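The guanylate-binding proteins (GBPs) and the immunity-related GTPases (IRGs) are interferon-inducible GTPases of cell-autonomous immunity. The 10 genes described here are 5 GBP genes (Gbp2, Gbp3, Gbp5, Gbp7 and Gbp9) and 5 IRG genes (Irgm1, Irgm2, Igtp, Iigp1 and Tgtp2). They were taken by symbol as a fixed list, which was chosen with earlier results of these data known. All 10 were found among the 24485 genes of each library.

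RNA was sequenced from bone marrow-derived macrophages (BMDMs) of 3 Il10-/- mice on the C57BL/6J background, 12-week-old males, grown in medium conditioned by L929 cells. All 18 libraries, the controls among them, therefore came from cells that cannot make IL-10. Cells were left without either agent (untreated in the labels, with a vehicle control before LPS in the study's methods) or received (+)-JQ1 (500 nM), which displaces bromodomain and extra-terminal (BET) proteins from acetylated chromatin, or recombinant IL-10 (10 ng/mL) for 12 h, and then received lipopolysaccharide (LPS, 50 ng/mL) or PBS for 4 h. The groups, with 3 libraries each and 1 per mouse, were Unstimulated (neither agent and no LPS), JQ1 alone, IL-10 alone, LPS, LPS + JQ1 and LPS + IL-10. The model is thus an in vitro culture from 3 animals of 1 sex and 1 genotype, with no wild-type macrophages. As RNA came from whole cultures, fewer responding cells and less RNA per cell cannot be told apart.

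Both families hydrolyse GTP and gather on the membranes that enclose intracellular bacteria and parasites. Gbp2 and Gbp5 carry a lipid anchor added at their C terminus and are known for opening pathogen-containing vacuoles and for helping caspase-11 (encoded by Casp4) meet cytosolic LPS, while Gbp3, Gbp7 and Gbp9 also reach parasite vacuoles in interferon-activated cells. Among the IRGs, Irgm1, Irgm2 and Igtp (also named Irgm3) sit on host membranes and keep the effectors in their inactive state, and Iigp1 (Irga6) and Tgtp2 (Irgb6) are effectors that load onto the vacuole. In macrophages LPS is known to act on these genes largely through interferon-beta made by the same cells, which leads to binding of factors such as IRF9 at the interferon-stimulated response element (ISRE), with IRF1 adding to the response.

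In the mm9 assembly used for the files, with the GENCODE annotation of that build, 4 of the GBP genes form a cluster on the plus strand of chromosome 3: Gbp5 (chr3:142159864-142185308), Gbp7 (chr3:142193302-142213047), Gbp3 (chr3:142223016-142236173) and Gbp2 (chr3:142283566-142300972). Gbp9 lies on chromosome 5 (chr5:105507413-105539311, minus strand). Of the IRG genes 4 lie on chromosome 11, namely Irgm1 (chr11:48675470-48685185, minus strand), Tgtp2 (chr11:48870696-48877708, minus strand), Igtp (chr11:58013058-58021093, plus strand) and Irgm2 (chr11:58028530-58036282, plus strand). Iigp1 lies apart from these clusters.

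The start sites of these genes are shown because the interferon and LPS-activated factors act there. RefSeq promoters of GRCm38.p6 were matched by symbol for 8 of the 10 genes (not Gbp9 or Iigp1), each covering 250 bases before and 50 bases after a start. The stretches below run 5′ to 3′ on the strand of the gene, and capitals mark matches on either strand to the ISRE core GAAANNGAAA, the gamma-activated site (GAS) TTCNNNGAA, an NF-kB site GGGANTTTCC or an AP-1 site TGANTCA. The 250 bases before the start are given for Gbp2 (chr3:142620413-142620662, plus strand), Gbp5 (chr3:142496684-142496933, plus strand) and Tgtp2 (chr11:49064213-49064462, minus strand), which stood at the ends of the response to JQ1 described below.
Gbp2: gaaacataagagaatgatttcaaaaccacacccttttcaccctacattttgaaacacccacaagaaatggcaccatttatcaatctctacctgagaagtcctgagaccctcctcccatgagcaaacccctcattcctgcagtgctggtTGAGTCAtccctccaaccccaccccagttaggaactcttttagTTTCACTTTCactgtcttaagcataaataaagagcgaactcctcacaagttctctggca
Gbp5: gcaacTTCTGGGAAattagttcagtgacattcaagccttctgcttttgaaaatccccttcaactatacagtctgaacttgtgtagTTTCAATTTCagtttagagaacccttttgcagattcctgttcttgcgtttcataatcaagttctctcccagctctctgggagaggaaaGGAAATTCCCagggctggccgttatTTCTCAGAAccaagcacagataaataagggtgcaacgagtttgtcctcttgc
Tgtp2: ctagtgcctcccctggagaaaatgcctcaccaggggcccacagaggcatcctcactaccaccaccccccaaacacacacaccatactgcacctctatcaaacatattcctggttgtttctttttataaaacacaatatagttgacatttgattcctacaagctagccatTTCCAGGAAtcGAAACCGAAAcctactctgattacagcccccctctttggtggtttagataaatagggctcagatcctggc

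For the other 5 genes the window around the ISRE core is given, with 15 bases on each side or up to the start: Gbp3 (chr3:142559984-142560029, plus strand), Gbp7 (chr3:142530268-142530307, plus strand), Irgm1 (chr11:48871421-48871465, minus strand), Irgm2 (chr11:58214898-58214937, plus strand) and Igtp (chr11:58199507-58199546, plus strand).
Gbp3: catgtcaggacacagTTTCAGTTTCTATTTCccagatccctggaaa
Gbp7: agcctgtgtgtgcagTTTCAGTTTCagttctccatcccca
Irgm1: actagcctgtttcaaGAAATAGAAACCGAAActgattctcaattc
Irgm2: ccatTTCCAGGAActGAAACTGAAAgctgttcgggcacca
Igtp: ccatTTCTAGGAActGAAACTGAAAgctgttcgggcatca

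All 8 genes held an ISRE core, which 3.44% of the 32851 promoters in the table hold. In Gbp3 and in Irgm1 a pair of ISRE cores overlapped. A GAS match stood at the starts of Gbp5, Gbp7, Irgm2, Igtp and Tgtp2 (8.30% of promoters), and in Irgm2, Igtp and Tgtp2 it ended 2 bases before the ISRE core. The 40-base windows of Igtp and Irgm2, neighbouring genes on chromosome 11, were identical at 38 bases. Gbp5 was the only one of the 8 with an NF-kB match (0.411% of promoters), and AP-1 matches stood before Gbp2 and Irgm1 (7.81% of promoters). A match is a stretch of letters and not a measured binding site.

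**Figure D1:**
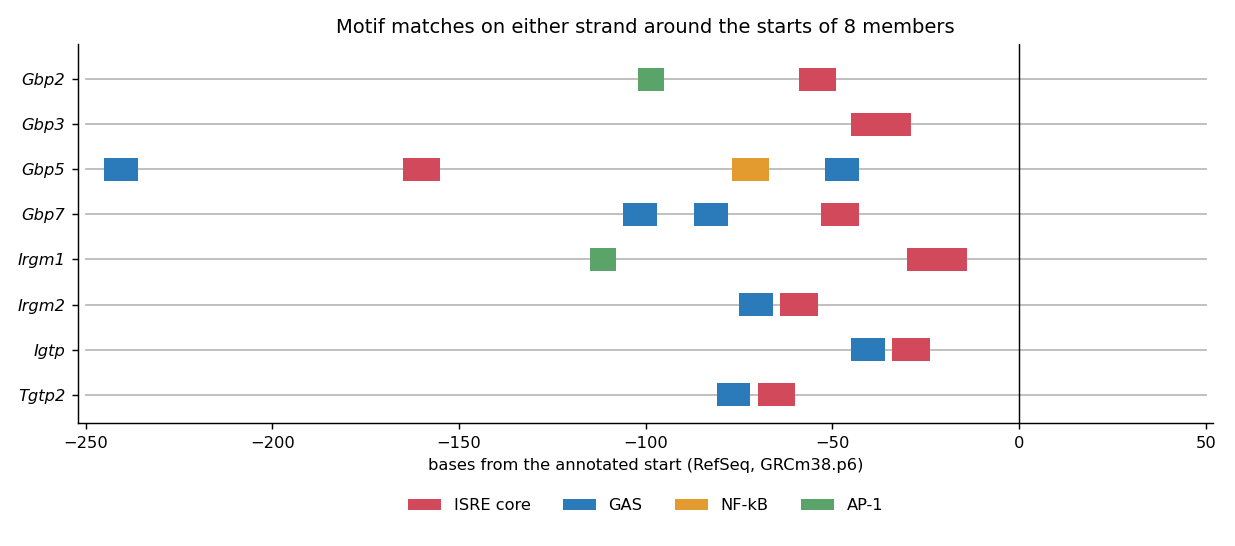
Positions of the motif matches in the RefSeq promoter windows of 8 genes, in bases from the annotated start (x axis, negative before the start). Each row is a gene and each block a match on either strand. An ISRE core lies within 100 bases of the start in 7 genes and at position -165 in Gbp5, the only gene with an NF-kB match.

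The libraries held 6781952 to 28289498 estimated counts each. Macrophage markers were abundant in all of them (7 markers, 14070 to 29055 TPM in sum), while the summed markers reached at most 0.25 TPM for natural killer cells, 0.89 for B cells, 2.85 for dendritic cells, 8.88 for T cells, 9.63 for fibroblasts and 10.2 for neutrophils. Cd3e, a defining T cell marker, had at most 1.35 normalised counts, and Ifng, encoding interferon-gamma, was listed at 0 in all but 3 libraries. Unstimulated replicate 1 stood apart from the other unstimulated libraries for these genes. Its normalised counts (estimated counts divided by DESeq2 size factors) were 1.55 to 8.15 times the mean of replicates 2 and 3 in all 10 genes, with Gbp9 lowest and Gbp2 highest. Over the 9545 genes with an unstimulated mean of at least 50, the median log2 ratio was -0.004, and 1.56% of them lay as far up as the lowest of the 9 GTPase genes above that mean. Results that rest on it are therefore also given without this library. For Gbp2 and Gbp5 the same library exceeded DESeq2's limit on Cook's distance (5.80 and 4.89 against 4.82), so that the default fit gave these genes no p-value. Their adjusted p-values below are those with that limit switched off.

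**Figure D2:**
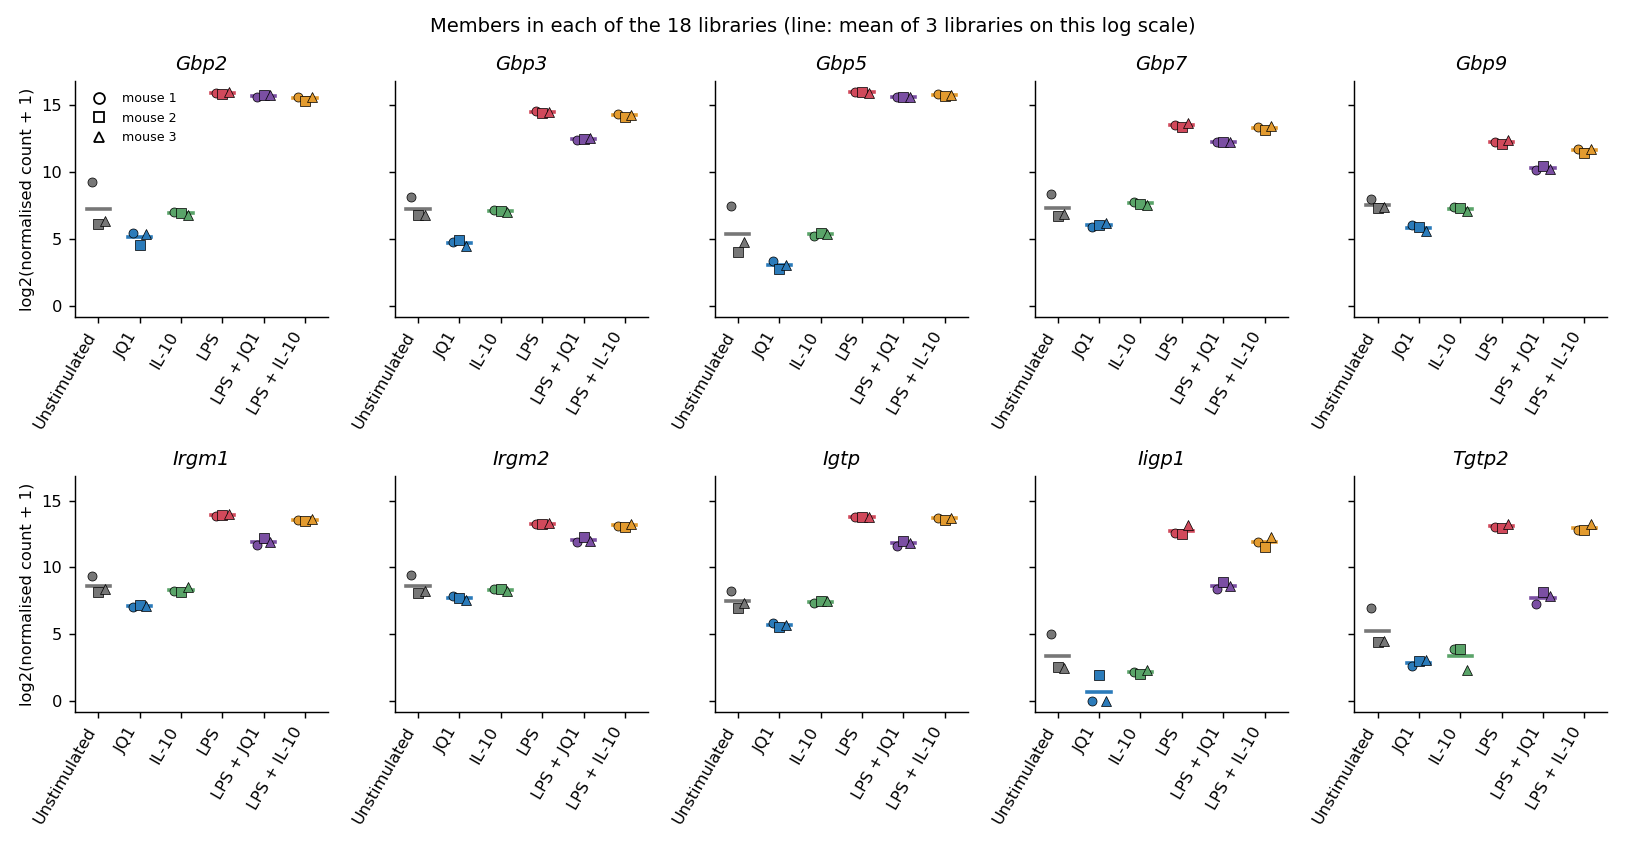
Log2 of the normalised count plus 1 (y axis) of each of the 10 genes in the 18 libraries, by group (x axis), with 1 symbol per mouse and a line at the mean on the log scale. All LPS-treated libraries lie above all libraries without LPS in every panel, the LPS + JQ1 libraries lie lowest among the LPS-treated ones except for Gbp2, and Unstimulated replicate 1 (grey circle) lies above the other unstimulated libraries.

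LPS raised every gene of the set. The adjusted p was below 0.05 for 8 of the 8 genes with a p-value in the default fit against 31.6% of the 14965 genes tested that rose, and for 10 of 10 with the Cook's limit off (32.3% of genes). The log2 fold changes ran from 4.53 (Irgm2) to 9.79 (Gbp5) with a median of 6.61, where the median of all genes was -0.07. No LPS value overlapped an unstimulated value in any of the 10 genes (33.4% of genes were higher without overlap). Leaving out Unstimulated replicate 1 raised the median to 7.22 with 10 of 10 called higher (32.5% of genes). When libraries were scaled to their total counts instead, the median of all genes moved to -1.02 and the genes called split into 2223 higher and 8858 lower, against 4728 and 4928 in the main fit. The GTPase genes then had a median of 5.68 and the 8 with a p-value were again called higher.

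Gbp2 and Gbp5, the lipid-anchored GBPs, reached the highest levels. Gbp2 had normalised counts of 619, 67.7 and 82.5 in the 3 unstimulated libraries and 62136, 59335 and 66176 with LPS. Gbp5 went from 174, 15.2 and 26.8 to 65181, 64984 and 62539. The unstimulated values spread over a wide range, with replicate 1 highest, whereas the LPS values of each gene lay close together. The log2 fold changes were 7.93 (SE 0.603, adjusted p = 1.24e-38) for Gbp2 and 9.79 (SE 0.562, adjusted p = 5.83e-67) for Gbp5. Gbp3, next to them on chromosome 3, rose from 285, 110 and 111 to 23970, 22454 and 23259 (log2 fold change 7.09, SE 0.279, adjusted p = 1.52e-141). Gbp7 of the same cluster and Gbp9, which lies on chromosome 5, rose less in log2 terms, by 6.00 (SE 0.340) and 4.68 (SE 0.154).

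The IRG effectors rose from low levels. Iigp1 had normalised counts of 32.4, 5.07 and 4.69 without LPS and 6196, 5784 and 9003 with it (log2 fold change 8.91, SE 0.579, adjusted p = 2.36e-52). Tgtp2 went from 123, 20.3 and 21.5 to 8452, 7898 and 9951 (log2 fold change 7.30, SE 0.585, adjusted p = 6.60e-35). The regulators Irgm1, Irgm2 and Igtp were already at 123 to 677 in unstimulated cells. They reached 9520 to 16371 with LPS, and their log2 fold changes were 5.18, 4.53 and 6.12, so that Irgm1 and Irgm2, the most abundant members without LPS, were among the 3 with the smallest changes.

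Levels between genes were compared as TPM, in which reads are divided by transcript length and scaled to 1 total per library. In unstimulated cells Irgm1 was highest (28.6 ± 13.9 TPM, SD, n = 3) and Iigp1 lowest (0.700 ± 0.814 TPM), but every gene overlapped the next in the order. With LPS the order was Gbp2 (2216 ± 270 TPM), Gbp5 (1815 ± 94.5), Gbp3 (769 ± 55.0), Irgm1 (609.5 ± 83.1), Igtp (604.6 ± 47.3), Tgtp2 (269 ± 51.3), Irgm2 (235 ± 26.6), Iigp1 (203 ± 66.6), Gbp7 (175 ± 27.1) and Gbp9 (115 ± 17.6). Irgm1 and Igtp overlapped, as did each neighbour from Tgtp2 to Gbp7, and the other neighbours did not. The 10 genes summed to 105 ± 69.5 TPM in unstimulated cells and to 7013 ± 721 TPM with LPS, and IRG transcripts made up 64.0% ± 6.90 of the sum before and 27.3% ± 1.02 after LPS.

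JQ1 without LPS lowered the whole set. All 8 genes with a p-value were called lower, where 23.7% of the 13686 genes tested were, and 10 of 10 were with the Cook's limit off (23.8% of genes). The median log2 fold change was -2.34, against -0.0006 over all genes. No JQ1 value overlapped an unstimulated value (29.4% of genes were lower without overlap). With total-count scaling the median of all genes was -0.18 and the genes called split into 1670 higher and 4568 lower, against 3001 and 3247. Because Unstimulated replicate 1 was high, the sizes depended on it: without that library all 10 genes were called lower (21.2% of genes were), and the median was -1.50. The T cell list summed to 6.95 to 8.20 TPM in unstimulated cells and 3.12 to 3.92 TPM with JQ1, most of it Cd4 (mean 7.44 and 3.46 TPM). The macrophage list summed to 22865 to 24626 and 28926 to 29055 TPM, of which Lyz2 held 18407 and 24665 TPM on average. In the DESeq2 fit 3 of the 7 macrophage markers were called lower and 3 higher (median -0.13), where 23.7% of all genes were lower. The part of these markers in the result was not tested.

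Gbp3 showed this at moderate counts, with 26.8, 29.6 and 21.1 after JQ1 against 285, 110 and 111 in unstimulated cells (log2 fold change -2.72, SE 0.320, adjusted p = 3.32e-16; -2.10 without replicate 1). Gbp2 fell to 42.4, 22.7 and 41.2 (-2.86, SE 0.618, adjusted p = 1.84e-05; -1.11 without replicate 1) and Gbp5 to 9.51, 5.91 and 7.33 (-3.26, SE 0.632, adjusted p = 1.50e-06; -1.61 without replicate 1). The effector Tgtp2 fell to 5.19, 6.90 and 7.33 (-3.11, SE 0.664, adjusted p = 1.43e-05; -1.71 without replicate 1). Each JQ1 library thus lay below all 3 unstimulated libraries for these 4 genes. Iigp1 was left with 3 counts over the 3 JQ1 libraries against 52 in the unstimulated ones, 16.7 times fewer per size factor (95% counting interval 5.42 to 83.8, which covers counting error only). The smallest change was that of Irgm2, a regulator, from 677, 276 and 304 to 230, 212 and 192 (-0.99, SE 0.273, adjusted p = 0.00095; -0.47 without replicate 1).

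IL-10 alone gave 1 call in the set. Tgtp2 was lower, with 14.1, 13.8 and 4.15 normalised counts against 123, 20.3 and 21.5 (log2 fold change -2.36, SE 0.620, adjusted p = 0.00873), while 1.01% of the 12727 genes tested were called lower. Summed with its near-identical copy Tgtp1, with which reads can be shared, Tgtp2 read 16.5, 13.8 and 11.6 with IL-10. The unstimulated sums were unchanged, and the sum was not tested. Without Unstimulated replicate 1 Tgtp2 was at -0.90 (adjusted p = 0.343), and Gbp2 (0.66, adjusted p = 0.00441) and Gbp7 (0.88, adjusted p = 3.75e-07) were called higher instead (2.59% of genes were). Gbp2 read 130, 121 and 111 with IL-10, above unstimulated replicates 2 and 3 and below replicate 1. For Gbp2 the sign of the IL-10 effect in resting cells thus turned with 1 library.

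The next question was how far each pretreatment limited induction by LPS. LPS + JQ1 against LPS called 8 genes lower and none higher, where 32.9% of the 14326 genes tested fell. The median log2 fold change was -1.96, against -0.11 over all genes, and no value overlapped between the groups in any of the 10 genes (35.4% of genes were lower without overlap). With total-count scaling the median of all genes was 0.25 and 5524 genes were called higher and 2994 lower, against 3491 and 4718 in the main fit. Other cell markers moved too. The T cell list summed to 6.81 to 8.30 TPM with LPS and 2.16 to 2.84 TPM with LPS + JQ1. Most of it was Cd4 (mean 3.34 and 2.02 TPM) and Lck (4.11 and 0.343 TPM, against 0.11 in unstimulated cells). The macrophage list summed to 14070 to 15492 and 19568 to 22550 TPM, of which Lyz2 held 10214 and 15998 TPM on average. In the DESeq2 fit 5 of the 7 macrophage markers were called lower and 1 higher (median -0.25), where 32.9% of all genes were lower. Cd3e was listed at 0 in both groups. Their part in the result was not tested. All 10 genes were called lower without Unstimulated replicate 1 (32.6% of genes). The sizes spread widely. In each mouse the normalised count with LPS + JQ1 was divided by the count with LPS alone, and the mean share kept ran from 2.55% ± 0.902 (SD, n = 3) for Tgtp2 to 86.2% ± 7.89 for Gbp2. The members fell into 4 steps by this share, and no value overlapped from step to step: Gbp2 and Gbp5, then Irgm2 and Gbp7, then Igtp, Gbp9, Irgm1 and Gbp3, and then Iigp1 and Tgtp2. These steps were drawn after the values were seen and carry no test.

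**Figure D3:**
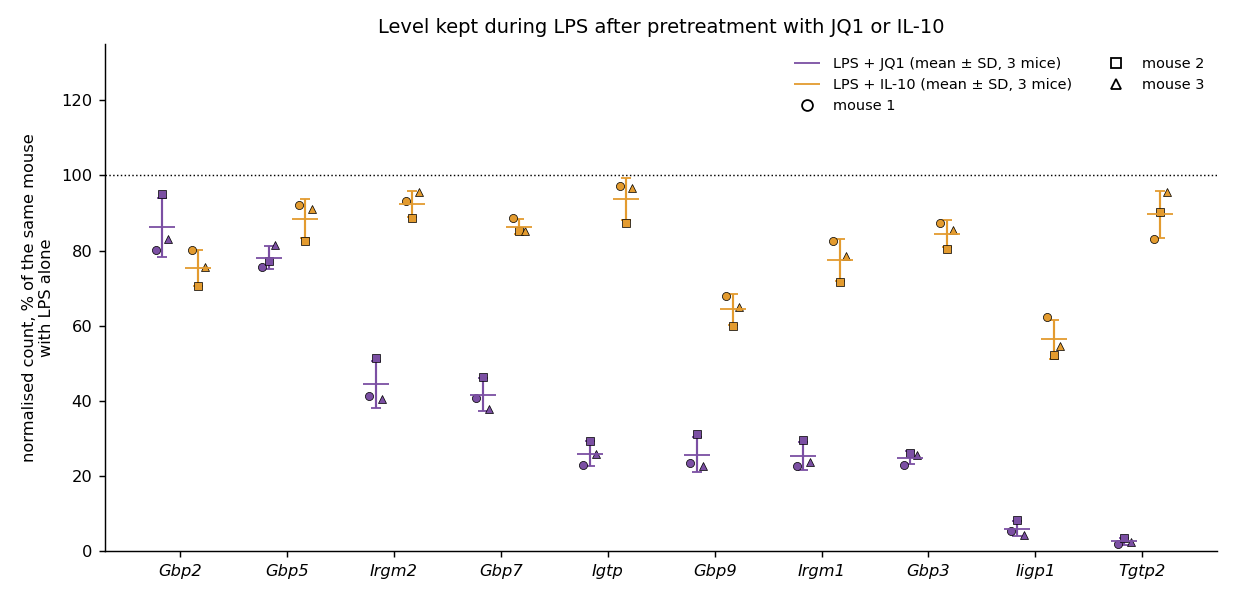
Normalised count after LPS with JQ1 (purple) or IL-10 (orange) pretreatment as a percentage of the count in the same mouse with LPS alone (y axis), for each of the 10 genes (x axis). Symbols are the 3 mice and bars the mean ± SD. With JQ1 the genes run from 86.2% (Gbp2) to 2.55% (Tgtp2), while with IL-10 they lie between 56.3% (Iigp1) and 93.7% (Igtp).

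The effector IRGs lost most. Tgtp2 had normalised counts of 151, 280 and 230 with LPS + JQ1 against 8452, 7898 and 9951 with LPS. The log2 fold change was -5.31 (SE 0.577, adjusted p = 2.58e-19), or 39.8 times lower. Iigp1 had 329, 474 and 389 against 6196, 5784 and 9003 (-4.14, SE 0.539, adjusted p = 9.06e-14), and kept 5.94% ± 2.01. Reads of Tgtp2 can be shared with its near-identical copy Tgtp1. The summed count of the pair kept 2.92% ± 1.14 of its level, close to the 2.55% of Tgtp2 alone. An antisense neighbour, Olfr56, overlaps Tgtp2 and had 353 ± 71.4 normalised counts with LPS and 64.6 ± 15.2 with LPS + JQ1, and since counting did not use the strand the reads of the overlap cannot be told apart.

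The regulators and the other GBPs lay in between. Irgm1 kept 25.2% ± 3.79 (3240, 4605 and 3860 against 14399, 15594 and 16371), Igtp 25.9% ± 3.25 and Irgm2 44.3% ± 6.18. Gbp3 kept 24.8% ± 1.68, Gbp9 25.7% ± 4.66 and Gbp7 41.6% ± 4.30. All 6 were called lower, with log2 fold changes from -2.01 (Gbp3, SE 0.271, adjusted p = 6.54e-13) to -1.18 (Irgm2, SE 0.264, adjusted p = 2.46e-05). Counts of Igtp and Irgm2 were not whole in any of the 18 libraries, since the counting divides reads that fit more than 1 gene, and the difference between these neighbours is therefore less certain than the decrease of each. Counts were also not whole in 16 libraries for Gbp9, 11 for Tgtp2, 10 each for Gbp3 and Gbp7 and 5 for Iigp1. Values of these genes carry the same limit.

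Gbp2 and Gbp5 were the exceptions. Gbp2 had 49859, 56433 and 55004 with LPS + JQ1, and Gbp5 had 49346, 50180 and 50927. Both groups lay just below the LPS values (the lowest of which were 59335 and 62539). The log2 fold changes of -0.22 (SE 0.601, 95% CI -1.40 to 0.96, adjusted p = 0.784) and -0.36 (SE 0.553, 95% CI -1.44 to 0.73, adjusted p = 0.615) did not pass. Without Unstimulated replicate 1, which enters these tests through the dispersion, both were called lower at -0.21 (adjusted p = 0.0348) and -0.35 (adjusted p = 4.33e-09). The direction of so small a change also depended on scaling, since Gbp2 stood at 0.16 and Gbp5 at 0.02 when libraries were scaled to total counts.

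**Figure D4:**
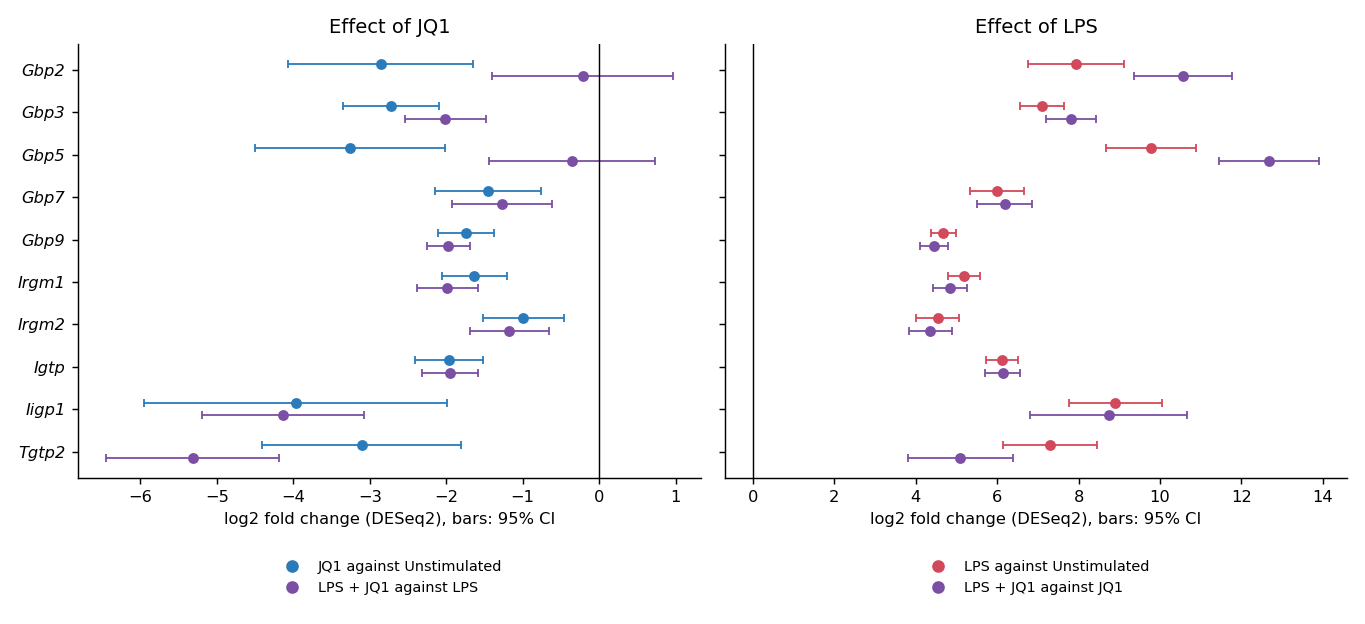
Log2 fold changes with 95% confidence intervals (x axis) for the 10 genes (y axis), with the effect of JQ1 in the left panel (without LPS in blue, during LPS in purple) and that of LPS in the right panel (without JQ1 in red, with JQ1 in purple). The interval for JQ1 during LPS includes 0 for Gbp2 and Gbp5 only, and the LPS effect in the presence of JQ1 is lower for Tgtp2 and higher for Gbp2 and Gbp5.

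A comparison free of any scaling between libraries was made by expressing each gene per 1000 Gbp2 counts of the same library. Because Gbp2 kept the largest share with JQ1 (86.2%), a gene that kept less has a lower ratio by construction. The ratios therefore describe differences from Gbp2 and are no separate test of a decrease. Tgtp2 stood at 136, 133 and 150 with LPS and at 3.03, 4.96 and 4.19 with LPS + JQ1, a ratio 35.1 times lower. Iigp1 went from 99.7, 97.5 and 136 to 6.60, 8.40 and 7.07, a log2 difference of -3.91. For these and the other 6 genes besides Gbp5 the groups did not overlap (exact permutation test, two-sided p = 0.10, the smallest that 3 against 3 libraries allow). Gbp5 per 1000 Gbp2 counts was 1049, 1095 and 945 with LPS and 990, 889 and 926 with LPS + JQ1, and these overlapped.

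The make-up of the set was followed in TPM. The 10 genes together held 4997 ± 468 TPM with LPS + JQ1 against 7013 ± 721 TPM with LPS. Gbp2 and Gbp5 made up 57.5% ± 0.781 of the summed TPM with LPS and 82.1% ± 0.972 with LPS + JQ1. IRG transcripts went from 27.3% ± 1.02 to 10.7% ± 1.08. Gbp2 alone stood at 2216 ± 270 TPM with LPS and 2349 ± 247 TPM with LPS + JQ1.

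**Figure D5:**
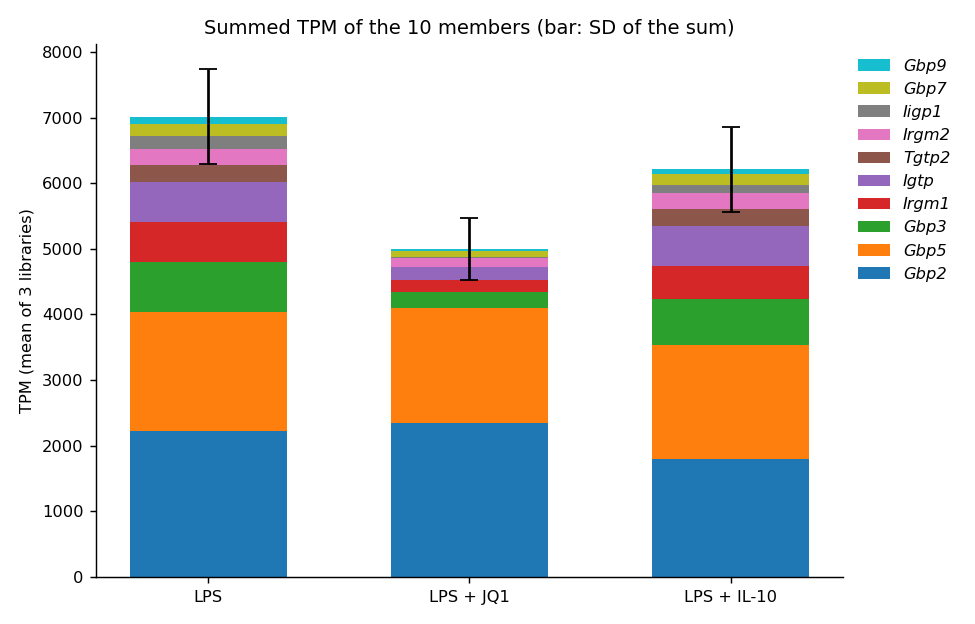
Mean TPM of the 10 genes stacked for the 3 LPS-treated groups (y axis, TPM; bars show the SD of the sum over 3 libraries). Gbp2 and Gbp5, the lowest blocks, take 57.5% of the sum after LPS alone, 82.1% after JQ1 pretreatment and 56.9% after IL-10 pretreatment.

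Cells that had received JQ1 still responded to LPS in every gene. LPS + JQ1 against JQ1 called 8 of 8 genes higher, where 27.6% of the 13686 genes tested rose, and 10 of 10 with the Cook's limit off (27.7% of genes), with log2 fold changes from 4.35 (Irgm2) to 12.69 (Gbp5). It called 10 of 10 without Unstimulated replicate 1 (27.0% of genes). The difference between the LPS responses with and without JQ1 was tested as an interaction, in which 17.7% of 12727 genes were called higher and 23.8% lower (2250 and 3029, against 5964 and 1023 with total-count scaling, where the median of all genes was 0.51). Tgtp2 responded less with JQ1 (-2.20, SE 0.880, adjusted p = 0.0319), but was not called with edgeR (adjusted p = 0.155) or when DESeq2 was fitted to the compared groups alone (adjusted p = 0.0537), where 0 of the genes were. Gbp2 (2.64, SE 0.862, adjusted p = 0.00706) and Gbp5 (2.90, SE 0.840, adjusted p = 0.00205) had a larger LPS response with JQ1 once the Cook's limit was off, with JQ1 effects of -2.86 and -3.26 in resting cells and -0.22 and -0.36 during LPS. With the mouse as a block the same 3 genes were called (Gbp2 2.41, Gbp5 2.68 and Tgtp2 -2.34, against 1 gene without the block). Without Unstimulated replicate 1 the values were 0.90 for Gbp2, 1.26 for Gbp5 and -3.60 for Tgtp2, all called, and Gbp7, Irgm1 and Irgm2 were also called lower, so that 2 were higher and 4 lower (16.2% and 22.2% of genes).

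IL-10 before LPS gave 1 call in the default fit. Gbp9 was lower, with 3332, 2712 and 3496 against 4899, 4520 and 5386 (log2 fold change -0.63, SE 0.143, adjusted p = 0.00014), where 8.81% of the 11448 genes tested were. The share kept ran from 56.3% ± 5.26 for Iigp1 to 93.7% ± 5.56 for Igtp, and on this normalised scale each of the 3 mice had less with LPS + IL-10 than with LPS in all 10 genes. In TPM this did not hold, as Igtp stood at 104%, 95.9% and 103% of its LPS level, and Irgm2 and Tgtp2 at 102% in mouse 3. For 7 genes the groups did not overlap (13.6% of genes were lower without overlap). Iigp1 had 3857, 3020 and 4905 (-0.83, SE 0.537, adjusted p = 0.347). Without Unstimulated replicate 1, and so with a smaller dispersion, 6 genes were called lower (Gbp2, Gbp3, Gbp5, Gbp9, Irgm1 and Iigp1, from -0.18 to -0.83, where 9.02% of genes were). LPS + IL-10 against IL-10 called 8 of 8 genes higher (33.2% of 14326 genes rose), and 10 of 10 without Unstimulated replicate 1 (33.1% of genes). No gene was called in the interaction of LPS with IL-10, in which 4.00% of 10808 genes were called higher and 3.44% lower, and 0 passed with edgeR or the mouse block as well. Tgtp2 alone had an unadjusted p below 0.05, 1 gene in DESeq2 and 1 in edgeR (DESeq2 log2 difference 2.20, SE 0.845, adjusted p = 0.0982), and without Unstimulated replicate 1 it stood at 0.75 while 5 genes, all GBPs, were called lower (3.44% of genes).

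In a direct test of the pretreatments during LPS, 8 genes differed, all lower with JQ1 (31.6% of 14326 genes were lower), from -1.06 (Gbp7) to -5.16 (Tgtp2, SE 0.577, adjusted p = 3.10e-18). Gbp2 (0.19, 95% CI -0.99 to 1.36, adjusted p = 0.821) and Gbp5 (-0.18, 95% CI -1.26 to 0.90, adjusted p = 0.812) were not separated, although Gbp5 was called lower (-0.18, adjusted p = 0.00514) without Unstimulated replicate 1. With total-count scaling the split over all genes was 4961 higher and 3139 lower, against 3404 and 4523 (median 0.16 against -0.10). Both comparisons with LPS use the same 3 LPS libraries. The agents also differ in kind and dose unit, so that the values hold for these doses alone.

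Other genes of both families were counted from a list of 25, also chosen with earlier results known, of which 20 were in the files. With LPS 18 rose (31.6% of all genes did) and 1 fell, and with LPS + JQ1 against LPS 15 fell (32.9% of all genes did) and 1 rose, with a median of -2.68. Gvin1, a very large inducible GTPase, had normalised counts of 52829, 50079 and 68641 with LPS and 17752, 20103 and 16186 with LPS + JQ1 (-1.67, adjusted p = 0.00025). Ifi47, a further IRG effector, had 13839, 13430 and 16577 against 1323, 1828 and 1546 (-3.22, adjusted p = 5.51e-11), and Gm12250 fell by 2.95 on the log2 scale (adjusted p = 2.23e-19). The gene that went the other way in both comparisons was Irgq, named after its values were seen, at -1.51 with LPS and 1.08 with JQ1 during LPS. Near-identical copies make single counts uncertain in this list.

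In the interferon pathway Ifnb1 was far lower with JQ1. Ifnb1, encoding interferon-beta, was listed at 0 in all 3 unstimulated libraries, at 113, 151 and 157 normalised counts with LPS, at 2.21, 5.27 and 6.15 with LPS + JQ1 and at 74.4, 31.9 and 53.2 with LPS + IL-10. It kept 3.12% ± 1.03 with JQ1 (log2 fold change -4.96, SE 0.516, adjusted p = 5.84e-21) and 40.3% ± 23.0 with IL-10 (-1.40, adjusted p = 0.000337). Of the factors downstream, Stat2 kept 55.2% ± 3.79, Irf9 47.9% ± 1.95 and Irf1 47.6% ± 3.06 with JQ1, and these 3 were called lower. Irf1 was called lower with IL-10 too (-0.90, adjusted p = 0.00637), at 11644, 8572 and 8985 against 17957, 18925 and 17617. Of the 20 pathway genes with a p-value 16 fell and 2 rose with JQ1 during LPS (32.9% of all genes fell), and 4 fell and 4 rose with IL-10 (8.81% fell). By the separate rule of no overlap between the groups, 26.4% of all genes were higher with JQ1 and 12.4% with IL-10. Leaving out Unstimulated replicate 1 gave 17 lower and 2 higher for JQ1 (32.6% of all genes lower). For IL-10 it gave 6 lower and 4 higher (9.02% of all genes lower). Whether interferon-beta sets the levels of the GTPase genes was not tested.

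Antiviral interferon-stimulated genes, which share the ISRE route, all rose with LPS (15 of 15, median 7.52), where 31.6% of all genes did. With JQ1 during LPS 10 of 15 fell (median -1.48), where 32.9% of all genes did. The count was 14 of 15 without Unstimulated replicate 1. The most abundant, Rsad2 (-0.46, adjusted p = 0.338), did not pass unless that library was left out (adjusted p = 0.000893), while Ifit1 did (-1.49, adjusted p = 0.00037). Of 15 other IRF1 and interferon-gamma targets, 13 had a p-value and all 13 fell with JQ1 during LPS (median -1.30), among them Tap1 (-1.30, adjusted p = 1.01e-13), a peptide transporter, and Cd274 (-0.81, adjusted p = 5.25e-05), an inhibitory ligand.

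Partners of the GTPases were counted in the same way. All 9 genes of the inflammasome list fell with JQ1 during LPS (median -1.40), where 32.9% of all genes did. Casp4, whose product senses cytosolic LPS, had 2141, 2600 and 2196 against 3458, 3325 and 4194 (-0.66, SE 0.146, adjusted p = 1.65e-05), and Gsdmd, the pore-forming gasdermin, fell by 2.23 on the log2 scale (adjusted p = 4.23e-96). Of the 14 genes of the ATG8 conjugation machinery, which directs IRGs and GBPs to vacuoles, 6 rose and 4 fell (median 0.21). Over all genes 32.9% fell and a smaller share rose, with the counts of the main fit given above. By the separate rule of no overlap between the groups, 26.4% of genes were higher and 35.4% lower. Sqstm1 stood at 0.64 (adjusted p = 7.52e-05) and Map1lc3b at 1.13 (adjusted p = 6.96e-44), and Gabarap, which encodes an ATG8 protein, at -0.27 (adjusted p = 7.54e-13). Of the 6 genes for protein prenylation, which adds the lipid anchor, or for later processing of the prenylated end, 3 rose and 2 fell (median 0.22). The background was the same, with 32.9% of all genes lower and a smaller share higher. With IL-10 during LPS the counts were 1 lower of 17 other family genes with a p-value, 1 lower of 15 antiviral genes, 1 lower of 13 targets with a p-value, 2 higher and 1 lower of 9 inflammasome genes, 1 higher and 1 lower of 14 conjugation genes and none of 6 prenylation genes, where 8.81% of all genes were lower. When Unstimulated replicate 1 was left out (9.02% of all genes lower) they were 2 lower of 18 family genes, 5 lower of 15 antiviral genes, 5 lower of 14 targets and 2 higher and 2 lower of 9 inflammasome genes, and were the same for the conjugation and prenylation genes.

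The genes whose pattern over the 18 libraries was most like that of the GTPase set were found by correlating each of 9478 genes with the mean of the 10 standardised profiles. The closest were Ddx58, Ifi211, Oasl1, Dtx3l and Oas1a, followed by Bcl2a1d, Slfn5, AW112010, Pstpip2 and Oas1g, with Pearson r from 0.997 to 0.999, where the median over all genes was 0.0957. These values are descriptive, and all points share the division of the libraries into those with and without LPS.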

How the data were processed

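Total RNA depleted of ribosomal RNA was sequenced from 18 BMDM libraries. According to the study's methods the authors trimmed adapters with TagDust, aligned read pairs to mm9 with STAR and quantified RefSeq transcripts with RSEM 1.2.31 at default settings, which do not use strand. The deposited files hold expected counts (not normalised and not always whole) and TPM (divided by effective length and scaled to 1 total per library). FPKM were not used, and 0 other per-sample columns were left out.

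Expected counts were rounded and fitted with DESeq2 1.42.0 in R 4.3.3. The model took the 18 libraries together, had no term besides the group, and kept the default size factors and filters. Genes with a Benjamini-Hochberg adjusted p below 0.05 over all genes tested were called. Adjusted p-values are DESeq2's unless another tool is named. Alternatives were TMM and total-count scaling, edgeR 4.0.16, limma 3.58.1 on log2(TPM + 1) and log2(TPM + 0.1), the replicate block, the lane, a minimum of 10 counts in 3 libraries, no filter, the compared groups alone, and each library left out. The Cook's limit switched off, and the fits without Unstimulated replicate 1 in comparisons not involving that group, were added after seeing the data. The fits were tested on simulated data for LPS + JQ1 against LPS, with the same dispersion for every gene and no outlying library. The interactions were not simulated, nor was a spread such as Unstimulated replicate 1 gave Gbp2 and Gbp5. Motifs and plots used Python 3.11.15.

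The labels describe 3 mice and biologically matched samples, so that the replicate number in the titles was read as the mouse and pairs the samples. Deviations of same-numbered libraries correlated at -0.0454 to 0.319 on average per comparison. Replicates 1 ran on 1 lane and replicates 3 on another, and replicates 2 were divided by LPS.

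All 10 GTPase genes were reported in every comparison. Other genes came from lists (other family genes, interferon pathway, ATG8 conjugation, inflammasome, prenylation, antiviral genes, IRF1 and interferon-gamma targets, cell markers), up to 4 per list by mean count, besides Ifnb1, Ifng, Stat2, Irf1, Irf9 and Casp4, whose roles are described (1 further gene of this rule is not reported here). Genes sharing reads with Tgtp2, and the 10 most correlated genes, were also named. The members and lists were chosen with earlier results of these data known. Depth was 6781952 to 28289498 counts, so that 3 counts, the limit that a count of 0 allows, stood at 0.106 to 0.442 CPM (counting error only).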

Additional observations from a re-analysis of the deposited data

Results flagged for a closer look

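The LPS response differed between cells with and without JQ1 in 3 of the 10 genes, by the DESeq2 interaction test (1 of the 8 with a p-value in the default fit). Over all genes 17.7% were called higher and 23.8% lower in the same test, so the count of 3 does not set these genes apart. The log2 response of Gbp2 was larger with JQ1 by 2.64 (adjusted p = 0.00706) and that of Gbp5 by 2.90 (adjusted p = 0.00205), both with the Cook's limit off, and that of Tgtp2 was smaller, at -2.20 (adjusted p = 0.0319). Without Unstimulated replicate 1 the values were 0.90, 1.26 and -3.60, and all 3 were called. With edgeR Gbp2 (adjusted p = 0.00486) and Gbp5 (adjusted p = 0.00343) were called and Tgtp2 was not (adjusted p = 0.155).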

How the results depend on the processing

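Of 1870 values for single genes under the alternatives, 1655 kept their direction and their side of the threshold, 145 passed it newly, 18 no longer passed and 52 changed sign. The counts of genes called stayed at 8 to 10 in LPS against Unstimulated, JQ1 against Unstimulated, LPS + JQ1 against LPS, LPS + JQ1 against JQ1 and LPS + IL-10 against IL-10, and at 8 or 9 lower in LPS + JQ1 against LPS + IL-10, where Gbp2 was also called higher (0.26, adjusted p = 0.0191) in the groups alone. For IL-10 alone (1 gene) the count was 0 in both limma fits and in the groups alone, and 0 to 2 with a library left out. For LPS + IL-10 against LPS (1 gene) it was 2 with edgeR, 0 with limma on log2(TPM + 0.1), 4 in the groups alone and 1 to 6 with a library left out, with 6 without Unstimulated replicate 1. For the interaction of LPS with JQ1 (1 gene) it was 2 with edgeR, 3 and 4 in the limma fits on log2(TPM + 1) and log2(TPM + 0.1), 3 with the replicate block, 3 with the lane, 3 with the Cook's limit off, 0 in the groups alone and 1 to 6 with a library left out. For the interaction of LPS with IL-10 (0 genes) it was 1 with total-count scaling and 0 to 5 with a library left out. The replicate block, which pairs libraries by mouse, changed no other call among the genes with a p-value in the default fit. The cause of these changes was not tested.

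Signs changed for small effects. In LPS + JQ1 against LPS, total-count scaling gave 0.16 for Gbp2 and 0.019 for Gbp5, and both limma fits gave 0.085 for Gbp2. In LPS + IL-10 against LPS both limma fits gave 0.013 for Igtp. In LPS + JQ1 against LPS + IL-10, Gbp5 was at 0.10 with total-count scaling and 0.0165 in both limma fits. In the interaction of LPS with JQ1, total-count scaling gave 0.33 for Gbp9, 0.20 for Irgm1, 0.37 for Irgm2 and 0.39 for Iigp1. The limma fit on log2(TPM + 0.1) gave 0.19 for Gbp9, 0.022 for Irgm1 and 0.19 for Irgm2, and that on log2(TPM + 1) gave 0.11 for Irgm2. In the interaction of LPS with IL-10, limma on log2(TPM + 0.1) gave -0.024 for Gbp2, -0.042 for Gbp3, -0.037 for Gbp5 and -0.016 for Irgm1, and limma on log2(TPM + 1) gave -0.039 for Gbp3, -0.022 for Irgm1 and -0.29 for Iigp1.

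With a library left out, values for IL-10 alone ranged from -1.54 to 0.66 for Gbp2, -0.58 to 0.32 for Gbp3, -1.33 to 0.74 for Gbp5, -0.13 to 0.88 for Gbp7, -0.62 to 0.043 for Irgm1, -0.60 to 0.14 for Irgm2 and -0.41 to 0.25 for Igtp. For the interaction with JQ1 they ranged from -0.54 to 0.46 for Gbp7, -0.70 to 0.0425 for Irgm2, -0.43 to 0.24 for Igtp and -1.75 to 2.34 for Iigp1. For the interaction with IL-10 they ranged from -1.06 to 1.13 for Gbp2, -0.56 to 0.34 for Gbp3, -0.92 to 1.15 for Gbp5, -0.41 to 0.25 for Irgm1, -0.25 to 0.49 for Irgm2, -0.35 to 0.32 for Igtp and -0.40 to 1.70 for Iigp1. Leaving out Unstimulated replicate 1 gave an end of each of these ranges. The other end for Iigp1 with JQ1 came without JQ1 replicate 2.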
